A study of Mus musculus with 12 samples.

Results

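Imatinib and vehicle were compared in quiescent leukemia stem cells of a mouse model of chronic myeloid leukemia (CML), and the comparison was described across all genes. The 6 libraries of the comparison, of 12 in the whole series, were chosen by their labels: 3 of DP cells (BCR-ABL1+CD27+G0M+ KSL cells of vehicle-treated mice) and 3 of IMDP cells (the same sorted population after imatinib). The other 6 libraries held the G0M- counterparts, 3 of SP cells (vehicle) and 3 of IMSP cells (imatinib). They were used to ask whether a difference was also seen there. They also entered the filter on low values and the estimate of the spread that all groups shared in the test. KSL cells are lineage-negative, Sca-1+ and c-Kit+ hematopoietic stem and progenitor cells. All 12 libraries came from C57BL/6 recipients that were lethally irradiated and received bone marrow cells transduced with a BCR-ABL1 retrovirus, and 100 cells from bone marrow and spleen were sorted for each library. The donor marrow came from G0M mice treated with 5-fluorouracil, in which Vav1-Cre switches on the reporter from the Rosa26 locus in blood cells, so that drug-treated and vehicle-treated cells alike carried BCR-ABL1, Vav1-Cre and the reporter. Imatinib was given once a day by oral gavage. The labels do not say whether the 3 libraries of a group came from separate mice, so the p-values measure the spread between these libraries.

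G0M is a fusion of the fluorescent protein mVenus with a p27 mutant that cannot inhibit cyclin-dependent kinases, and it accumulates in cells that rest in G0. BCR-ABL1 is a constitutively active tyrosine kinase that drives RAS-ERK, PI3K-AKT, STAT5 and NF-κB signaling. Imatinib binds the kinase pocket of ABL1 and also inhibits KIT and the PDGF receptors. Quiescent CML stem cells are known for surviving the drug although their progeny die. Immediate-early genes such as *Fos*, *Egr1* and *Nr4a3* are transcribed within minutes of growth factor, cytokine or stress signals, whereas chaperone and unfolded protein response genes follow the protein load of the cytosol and the endoplasmic reticulum (ER).

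The 6 libraries rested on 12.9 to 16.9 M reads, and 1 read per kb of transcript was worth 0.0590 to 0.0774 RPKM (reads per kb of transcript and per 1 M reads). The share of reads on listed features was 30.8% to 33.6% in DP and 25.8% to 31.0% in IMDP libraries. Whether this share bears on the lower values of IMDP cells described further down was not tested. Log2 values of 2 replicates correlated across genes at r = 0.920 to 0.948 among DP libraries and at 0.889 to 0.930 among IMDP libraries. The first principal component of the 6 libraries held 35.8% of the variance and placed all IMDP libraries on one side of all DP libraries. All IMDP libraries carried lower library numbers (1, 4 and 5) than all DP libraries (7, 9 and 11), so treatment and any batch that follows these numbers cannot be told apart. The label was checked against the sort markers. *Kit* (c-Kit), *Ly6a* (Sca-1) and *Cd27* were present in all 6 libraries at 18.8 to 39.8, 5.61 to 20.8 and 12.2 to 21.4 RPKM, and *Mki67*, a mark of cycling cells, stood at 14.7 ± 5.70 RPKM in DP, 8.16 ± 1.67 in IMDP and 54.2 ± 3.42 in SP cells (mean ± SD, n = 3).

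Single libraries of both groups stood apart in markers of other cell types. DP replicate 1 had the highest sum over 17 neutrophil and monocyte markers, 1627 RPKM against 111 and 326 in the other DP libraries and 135 to 380 in the IMDP libraries, with *Mpo* at 766 and *Elane* at 271 RPKM. IMDP replicate 1 had the highest sum over 16 erythroid markers, 502 RPKM against 219 to 295 in DP and 67.7 and 99.6 in the other IMDP libraries. Most of it was *Hbb-bs*, *Hba-a1* and *Hba-a2* at 157, 102 and 103 RPKM. *Alas2* (2.74) and *Slc4a1* (4.17) were also highest there. Other genes of the list went the other way. *Hbb-bt* was at 117 RPKM against 175 to 226 in DP, and *Klf1* (0.101) and *Epor* (0.166) were the lowest of the 6 libraries. Sums over 15 mast cell and basophil markers ran from 99.1 to 427 RPKM in DP and from 23.7 to 225 in IMDP libraries, and those over 12 megakaryocyte markers from 31.6 to 155 and from 18.6 to 124. Macrophage markers (14 genes) summed to 6.40 to 18.7 RPKM in DP and 15.3 to 20.2 in IMDP, with *Marco* and *Timd4* at 0 in all 6 libraries. T and NK cell markers (11 genes) summed to 92.5 to 188 and 33.4 to 93.8. Most of this sum was *Nkg7*, highest in DP replicate 1 at 171.5 RPKM. *Cd3d*, *Cd3e*, *Cd3g*, *Cd4*, *Cd8a*, *Cd8b1*, *Ncr1* and *Klrb1c* were each at or below 1.27 RPKM in every library. Dendritic cell markers (8 genes) summed to 20.7 to 24.6 and 12.9 to 15.1 RPKM, most of it *Bst2*. B cell markers (9 genes) stayed between 2.60 and 3.78 RPKM, with *Pax5*, *Ebf1* and *Ms4a1* at 0, and stromal and endothelial markers (8 genes) at or below 1.06 RPKM. The part of these cells in the results below was not tested. In RNA of sorted pools, fewer cells of a type and less RNA per cell cannot be told apart.

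10072 genes reached 1 RPKM in 3 or more of the 12 libraries and were tested, and 37 of them differed between IMDP and DP cells at an adjusted p under 0.05, which is 0.367% of the genes tested. 34 were lower in IMDP cells (0.338%) and 3 were higher (0.0298%). The test was limma on log2(RPKM + 0.1) with Benjamini-Hochberg adjustment over all genes tested, and adjusted p-values of the 37 genes lay between 0.00863 and 0.0499. In each of the 37 the 3 IMDP libraries did not overlap the 3 DP libraries. Over all genes, 1916 (19.0%) had every IMDP library below every DP library and 461 (4.58%) had every IMDP library above. Across the genes tested, the log2 fold change had a median of -0.17 and was below 0 for 69.3%, so a fall exceeds that of the typical gene only beyond this shift. The lean toward lower values depended on how libraries were scaled, since centering each library on its median left 2 calls, both lower (*Cd69* and *Mxd1*), and a test of the recovered reads with trimmed mean of M values (TMM) scaling gave 10 calls, 7 of them higher. Fitting only the 6 libraries of the comparison gave 0 calls, and neighboring library numbers as a random block left 8. Single libraries also decided the number of calls. It was 189 without IMDP replicate 1, 29 without DP replicate 3, 14 without IMDP replicate 2, 2 without DP replicate 2, 1 without DP replicate 1 and 0 without IMDP replicate 3.

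**Figure D1:**
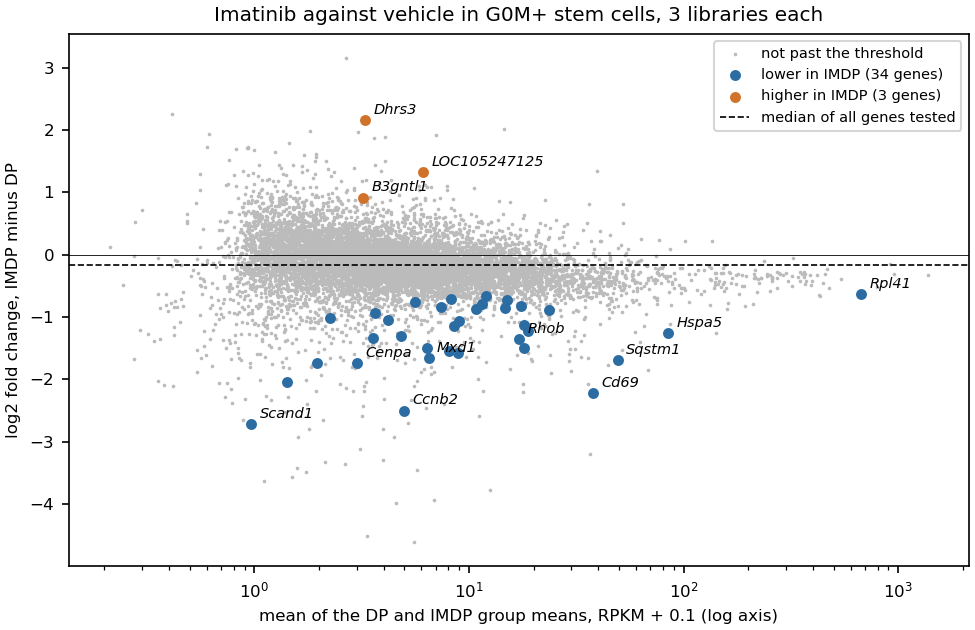
Log2 fold change between IMDP and DP cells (vertical axis) against the mean of the 2 group means in RPKM + 0.1 (log axis) for the 10072 genes tested; each point is a gene, blue points are the 34 genes lower in IMDP cells, orange points the 3 genes higher, and the dashed line is the median of all genes at -0.17. Most genes above 10 RPKM lie below 0, and several grey points with larger fold changes than the colored ones did not pass the test.

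The smallest adjusted p belonged to *Cd69*, which encodes a C-type lectin that appears on the surface of leukocytes soon after activation (GRCm38 chr6:129267325-129275436, minus strand). *Cd69* measured 56.2, 76.2 and 54.0 RPKM in the DP libraries and 18.2, 12.1 and 10.2 RPKM in the IMDP libraries. The lowest DP library was well above the highest IMDP library, and the gene fell 4.66-fold (log2 fold change -2.22, SE 0.24, limma adjusted p = 0.00863). It was also called in 14 of 16 alternative settings, more than any other gene. *Mxd1*, which encodes a MAX partner that opposes MYC at E-boxes, was at 9.28, 9.32 and 10.5 RPKM in DP and at 3.78, 3.06 and 2.32 in IMDP libraries. Its DP libraries were close together and far above all IMDP libraries, a 3.16-fold fall (log2 fold change -1.66, SE 0.21, limma adjusted p = 0.0268), called in 12 of the 16 settings. *Myc* itself was not called (adjusted p = 0.882), at 31.1 ± 7.74 RPKM in DP and 30.7 ± 14.6 in IMDP cells. Of the 12 genes tested from the MYC and MXD network, *Mxd1* alone passed the test.

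Several other genes of signaling and stress were among those that fell. *Rhob*, a small GTPase induced by growth factors and stress, measured 21.1, 29.5 and 23.1 RPKM in DP and 7.61, 9.90 and 11.2 RPKM in IMDP libraries (2.56-fold lower, limma adjusted p = 0.0268). *Sqstm1*, which encodes the autophagy receptor p62, measured 58.7, 105 and 64.6 RPKM in DP and 25.0, 20.9 and 22.1 in IMDP libraries, with a wide spread in DP and a narrow one in IMDP cells (3.24-fold lower, adjusted p = 0.0338). *Sqstm1* was the only one of 19 tested genes of the NRF2 and oxidative stress list to pass. *Malt1*, the paracaspase that links antigen and other receptors to NF-κB, had 8.59, 13.7 and 5.89 RPKM in DP and 3.14, 3.09 and 3.03 in IMDP libraries (2.81-fold lower, adjusted p = 0.0468). *Bst2*, an interferon-induced antiviral tether, fell 1.76-fold from 22.2 ± 2.10 to 12.6 ± 1.15 RPKM and was the only one of 37 tested interferon-stimulated genes called. The transcription factors *Klf9* and *Zbtb2*, the histone H3 lysine 79 methyltransferase *Dot1l*, the atypical MAP kinase *Mapk6* and the transcriptional regulator *Ifrd1* fell between 1.85- and 2.19-fold, each with DP libraries above all IMDP libraries. Exons of *Sqstm1* overlap *Mrnip* and those of *Ifrd1* overlap *Gm7008* on the other strand, and the libraries did not keep strand, so reads of such pairs cannot be told apart. The same holds for *Ak6* (with *Taf9* and *Rad17*), *Bud31* (*Ptcd1*), *Golph3* (*1810049J17Rik*), *Kti12* (*A730015C16Rik*), *Orc6* (*Vps35*), *Scand1* (*Cnbd2*), *Hist1h2ak* (*Gm44454*) and *B3gntl1* (*Tbcd*).

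**Figure D2:**
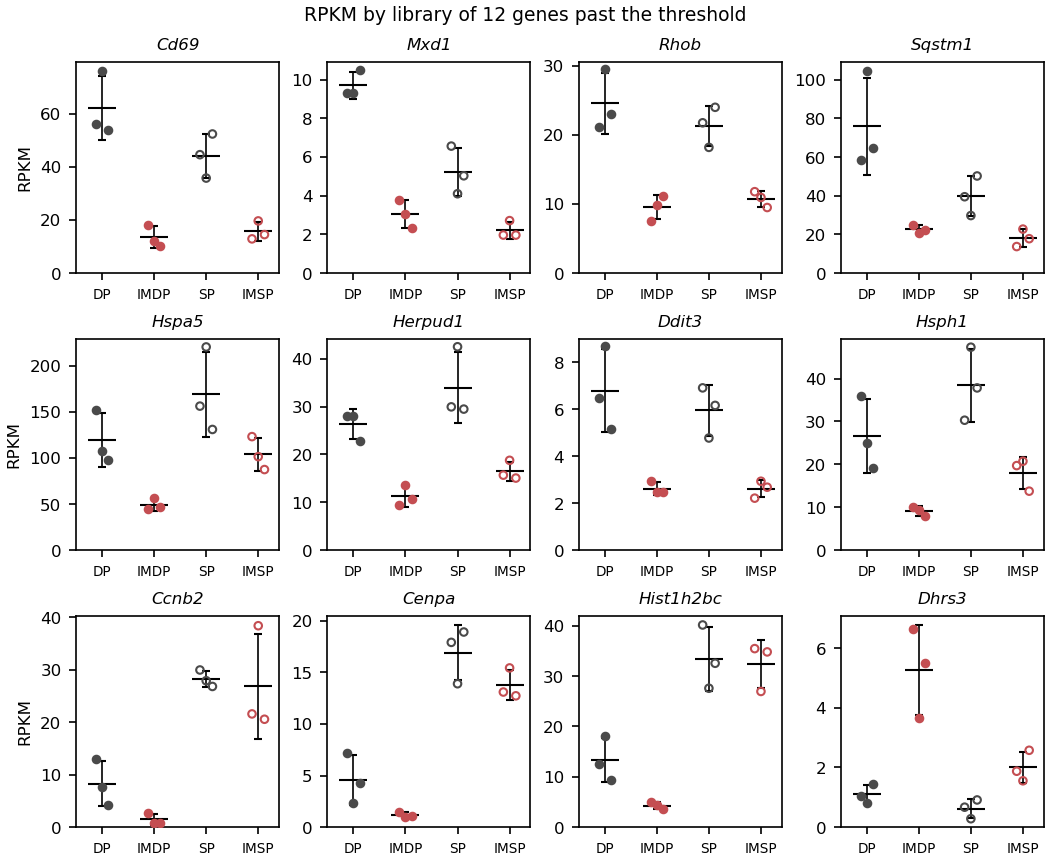
RPKM (vertical axes, from 0) in each library of 12 genes past the threshold, in DP and IMDP cells (filled points) and in SP and IMSP cells (open points), vehicle in grey and imatinib in red; bars are the mean and SD of 3 libraries. *Cd69*, *Mxd1*, *Rhob*, *Sqstm1* and *Ddit3* were low after imatinib in both populations, whereas *Ccnb2*, *Cenpa* and *Hist1h2bc* were high in both SP and IMSP cells.

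Among the falls were 2 chaperones, *Hspa5* and *Hsph1*, and 2 other genes of the ER stress response, *Herpud1* and *Ddit3*. *Hspa5* encodes BiP, the main ER chaperone and the sensor partner of the unfolded protein response. It measured 153, 107 and 97.8 RPKM in DP and 44.6, 56.5 and 46.3 RPKM in IMDP libraries, so even the lowest DP library stood well above the highest IMDP library (2.39-fold lower, log2 fold change -1.26, SE 0.22, limma adjusted p = 0.0468). *Herpud1*, an ER membrane protein of ER-associated degradation, measured 28.1, 28.1 and 22.7 against 9.40, 13.7 and 10.7 RPKM (2.34-fold lower, adjusted p = 0.0338). *Ddit3* encodes CHOP, a transcription factor of prolonged ER stress, and measured 6.49, 8.67 and 5.18 against 2.95, 2.45 and 2.46 RPKM (2.48-fold lower, adjusted p = 0.0379). *Hsph1*, the cytosolic HSP110 co-chaperone, measured 36.0, 25.0 and 19.1 against 10.1, 9.45 and 7.94 RPKM (2.81-fold lower, adjusted p = 0.0457). For *Hspa5* and *Hsph1* the highest value was that of DP replicate 1, the library with the high neutrophil and monocyte markers, and without that library neither gene was called (log2 fold change -1.07 and -1.25).

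Of 21 heat shock chaperones tested, 2 passed (*Hsph1* and *Hspa5*), 18 (85.7%, beside 19.0% of all genes) had all IMDP libraries below all DP libraries, and the median log2 fold change was -0.81, beside -0.17 over all genes. *Hspa1b*, a strongly inducible HSP70 gene, measured 8.46 ± 5.53 RPKM in DP and 0.504 ± 0.508 in IMDP cells, with an adjusted p of 0.0719, and *Hspe1*, the mitochondrial HSP10, 35.5 ± 9.94 and 17.8 ± 3.69 RPKM with an adjusted p of 0.0612. In a list of 34 unfolded protein and integrated stress response genes, drawn up after the values were seen, 3 of 32 tested passed (*Hspa5*, *Herpud1* and *Ddit3*), 20 (62.5%) had non-overlapping lower IMDP libraries and the median was -0.90. Both medians stayed below that of all genes with median scaling (-0.66 and -0.75) and without DP replicate 1 (-0.64 and -0.60). *Atf3*, a stress-induced transcription factor, was at 12.6 ± 5.48 RPKM in DP and 2.42 ± 1.31 in IMDP cells (adjusted p = 0.107), and *Vegfa*, an angiogenic factor induced by hypoxia and ATF4, at 18.2 ± 4.53 and 4.86 ± 3.86 (adjusted p = 0.0626).

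The 150 bases before the RefSeq start of *Hspa5* and *Herpud1* are shown because they hold the classical ER stress elements, to which the unfolded protein response factors ATF6, together with NF-Y, and XBP1 are known to bind (GRCm38.p6, chr2:34771940-34772089 and chr8:94386279-94386428, both plus strand). Capitals mark the ER stress element ERSE (CCAAT and CCACG with 9 bases between them) in *Hspa5* and ERSE-II (ATTGG and CCACG with 1 base between them) in *Herpud1*, elements that were searched after the values were seen.
Hspa5: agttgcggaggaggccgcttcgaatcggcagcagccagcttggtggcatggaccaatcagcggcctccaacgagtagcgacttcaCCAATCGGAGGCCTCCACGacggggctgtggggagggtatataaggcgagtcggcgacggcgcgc
Herpud1: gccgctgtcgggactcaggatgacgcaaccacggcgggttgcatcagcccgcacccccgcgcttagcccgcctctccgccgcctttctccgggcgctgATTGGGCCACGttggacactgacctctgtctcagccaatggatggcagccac
On either strand, ERSE lay in 0.130% of 27025 RefSeq promoter windows (250 bases before to 50 after the start) and in 1 of the 27 fallen genes that had a window. ERSE-II lay in 0.0370% of windows and likewise in 1 of 27. The CCAAT letters of ERSE and, in reverse, of ERSE-II are also counted as CCAAT boxes below.

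Among the falls were also *Ccnb2*, *Cenpa*, *Stil* and *Orc6*, genes of mitosis, centrioles and replication origins, and 3 core histone genes. *Ccnb2*, the cyclin B2 that activates CDK1 at mitosis, measured 12.9, 7.71 and 4.30 RPKM in DP and 2.71, 0.829 and 0.843 in IMDP libraries, and 28.2 ± 1.59 RPKM in SP cells. Its DP libraries differed widely among themselves but all exceeded the IMDP libraries (5.66-fold lower, log2 fold change -2.50, SE 0.45, limma adjusted p = 0.0468). *Cenpa*, the histone H3 variant of centromeres, measured 7.18, 2.37 and 4.25 against 1.46, 1.01 and 1.11 RPKM (3.34-fold lower, adjusted p = 0.0468). *Stil*, required for centriole duplication, fell 2.52-fold from 5.06 ± 1.34 to 1.91 ± 0.281 RPKM, and *Orc6*, a subunit of the origin recognition complex, 1.80-fold from 9.36 ± 0.354 to 5.22 ± 1.00 RPKM. The core histone genes *Hist1h2ak*, *Hist1h2bc* and *Hist1h2bg* fell as well. *Hist1h2bc* measured 12.5, 18.2 and 9.43 RPKM in DP and 5.00, 4.34 and 3.51 in IMDP libraries (2.99-fold lower, adjusted p = 0.0338). *Hist1h2ak* rested on as few as 2 reads in an IMDP library, and near-identical histone copies may share reads.

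Of 46 G2/M and mitosis genes, 2 passed (*Ccnb2* and *Cenpa*), 8 (17.4%) had non-overlapping lower IMDP libraries, a share below the 19.0% of all genes, and the median log2 fold change was -0.73. That median moved to -0.23 without DP replicate 1, whose G2/M level was the highest of the 6 libraries. *Ube2c*, the mitotic ubiquitin-conjugating enzyme, was at 26.4 RPKM in DP replicate 1, 3.36 and 3.48 in the other DP libraries and 0.444 to 2.24 in the IMDP libraries (adjusted p = 0.101). Of 42 DNA replication genes, 1 passed (*Orc6*), with 8 non-overlapping lower (19.0%, the same share as over all genes) and a median of -0.45. Of 55 replication-dependent histone genes, 3 passed, 20 (36.4%) were non-overlapping lower and the median was -1.27, or -0.63 with a pseudocount of 1, many of these genes being near the detection limit. Among 25 genes of G1 cyclins, CDKs, RB, E2F and CDK inhibitors none passed, 4 were non-overlapping lower, a smaller share than over all genes, and the median was -0.24. *Cdkn1b*, whose mutant form is part of the G0M reporter, was at 8.02 ± 1.66 RPKM in DP and 6.66 ± 0.973 in IMDP cells.

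The promoter stretches of *Ccnb2* (chr9:70421555-70421704, minus strand) and *Cenpa* (chr5:30666736-30666885, plus strand) are shown because CCAAT boxes, the binding sites of NF-Y, are a known feature of G2/M promoters. Each is the 150 bases before the RefSeq start in GRCm38.p6, with CCAAT or its reverse complement in capitals.
Ccnb2: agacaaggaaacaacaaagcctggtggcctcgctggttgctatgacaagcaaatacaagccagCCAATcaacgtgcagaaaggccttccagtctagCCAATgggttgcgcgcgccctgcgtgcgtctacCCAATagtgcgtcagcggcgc
Cenpa: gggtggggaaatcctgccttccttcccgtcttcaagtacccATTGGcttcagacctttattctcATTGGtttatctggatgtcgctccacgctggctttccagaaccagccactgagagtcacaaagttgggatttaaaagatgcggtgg
*Ccnb2* held 3 and *Cenpa* 2 such boxes in this stretch. A RefSeq window was found for 29 of the 37 called genes, 27 that fell and 2 that rose. CCAAT, on either strand, lay in 15 of the 27 windows of fallen genes, beside 39.3% of 7839 tested genes with a window and 37.9% of all windows. TTTGAA, the core of the cell cycle homology region, lay in 3 of 27 (11.9% of tested genes, 18.1% of all windows), and CACGTG, the E-box read by MYC and MXD proteins, in 3 of 27 (10.7% and 7.24%), with no match in the window of *Mxd1*. TGACGTCA, the cAMP response element, lay in 2 of 27 (3.42% and 1.88%), TGANTCA, the AP-1 site, in 4 of 27 (4.53% and 7.93%) and TTCNNNGAA, the STAT site, in 4 of 27 (6.94% and 8.47%). A match gives the letters in the window and no binding.

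3 genes of respiration and translation fell. *Atp5k* and *Cox7c*, subunits of ATP synthase and of cytochrome c oxidase, fell 1.81-fold (18.8 ± 1.49 to 10.4 ± 1.12 RPKM) and 1.74-fold (14.5 ± 1.20 to 8.37 ± 1.62 RPKM), the only 2 of 75 respiratory chain subunits to pass. 43 of the 75 (57.3%, beside 19.0% of all genes) had non-overlapping lower IMDP libraries and the median was -0.53, beside -0.17 over all genes. *Rpl41*, the smallest ribosomal protein gene, measured 872, 812 and 762 RPKM in DP and 563, 510 and 501 RPKM in IMDP libraries, a 1.55-fold fall with clearly separate groups (limma adjusted p = 0.0468). It was the only one of 79 cytosolic ribosomal protein genes to pass, 47 of which (59.5%) were non-overlapping lower, with a median of -0.34. With median scaling the medians of both lists remained below 0, at -0.38 and -0.20, beside -0.02 over all genes. The remaining falls were spread over roles, and among them *Golph3*, *Napa*, *Igbp1*, *Kti12*, *Ak6*, *Bud31* and *Ccdc117* fell between 1.59- and 2.22-fold. *Golph3* and *Napa* act in Golgi trafficking and SNARE recycling, *Igbp1* binds the catalytic subunit of protein phosphatase 2A, *Kti12* acts with the Elongator complex in tRNA modification, and *Ak6* and *Bud31* are an adenylate kinase and a spliceosome component. *Scand1* and *Gm21596* also fell, both at low levels, *Scand1* from 1.57 ± 0.296 to 0.167 ± 0.125 RPKM on 1 to 22 reads per library.

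3 genes rose. *Dhrs3* encodes a retinal reductase of the ER that turns all-trans-retinal back into retinol and is itself induced by retinoic acid (chr4:144892827-144928209, plus strand). It measured 1.05, 0.804 and 1.44 RPKM in DP and 6.63, 3.66 and 5.50 RPKM in IMDP libraries, and the lowest IMDP library exceeded the highest DP library (4.46-fold higher, log2 fold change 2.16, SE 0.37, limma adjusted p = 0.0462). Of 11 tested genes of retinoid metabolism and receptors it alone passed, and the median of the list was 0.07. *Rara*, the retinoic acid receptor alpha, was at 1.52, 2.18 and 2.13 RPKM in DP and 0.508, 1.35 and 1.78 in IMDP libraries, which overlap. The unplaced gene *LOC105247125* measured 3.06, 2.99 and 4.21 against 7.51, 9.43 and 8.89 RPKM (2.50-fold higher, adjusted p = 0.0381), and *B3gntl1*, a glycosyltransferase-like gene, 1.95, 2.14 and 2.26 against 4.56, 3.20 and 4.60 RPKM (1.88-fold higher, adjusted p = 0.0468). All 3 were also higher in every IMSP library than in every SP library.

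No gene of the immediate-early, ERK feedback and NF-κB lists passed the test. Of 24 immediate-early genes, 20 (83.3%, beside 19.0% of all genes) had every IMDP library below every DP library. The median log2 fold change was -1.43. By limma 21 of the 24 reached an unadjusted p under 0.05, all of them lower. So did 2061 of the 10072 genes tested, 1786 of them lower. *Nr4a3*, an orphan nuclear receptor, was at 1.95, 4.68 and 2.46 RPKM in DP and 0.110, 0.586 and 0.411 in IMDP libraries (limma adjusted p = 0.0574). *Ier2*, a nuclear growth factor response gene, was at 32.0, 65.7 and 47.7 RPKM against 16.2, 20.9 and 16.6 (adjusted p = 0.0996). *Fosl1* and *Fosl2*, which encode AP-1 subunits, had adjusted p-values of 0.0962 and 0.0793. *Fos*, named for its role after its values were seen, was at 95.2, 70.9 and 159 RPKM against 63.6, 66.5 and 83.2, which overlap. The DP libraries differed more among themselves than the IMDP libraries, the median of the list lying 0.23, 1.12 and 0.77 above each gene's mean in DP replicates 1 to 3 (log2) and -1.07, -0.40 and -0.65 in IMDP replicates 1 to 3.

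Among 12 ERK feedback genes none passed, 5 (41.7%) had non-overlapping lower IMDP libraries and the median was -0.88. *Phlda1*, an ERK-induced pleckstrin homology protein, was at 11.6, 13.2 and 5.78 RPKM in DP and 1.11, 1.58 and 0.242 in IMDP libraries (adjusted p = 0.0603). *Dusp5*, a nuclear ERK phosphatase, *Spred2* and *Spry2*, inhibitors of RAS-ERK signaling, had fold differences of 2.48, 1.86 and 1.95 with adjusted p-values of 0.0921, 0.0848 and 0.0808. Of 15 STAT5 target and SOCS genes none passed, 5 (33.3%) were non-overlapping lower and the median was -0.35. *Osm*, a cytokine gene induced by STAT5, was at 39.3, 77.7 and 19.7 RPKM in DP and 15.8, 17.0 and 17.1 RPKM in IMDP libraries, and *Id1*, an inhibitor of basic helix-loop-helix factors, at 5.24 ± 0.402 and 2.15 ± 1.52 RPKM (adjusted p = 0.178 and 0.0808).

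None of 31 tested NF-κB subunits, inhibitors and targets passed, 19 (61.3%) had non-overlapping lower IMDP libraries and the median was -0.94. *Tnf*, the inflammatory cytokine, came closest, at 7.92, 13.2 and 5.48 RPKM in DP and 2.06, 0.854 and 0.928 in IMDP libraries (log2 difference -2.71, SE 0.53, limma adjusted p = 0.0538). The chemokine genes *Cxcl10* and *Cxcl2* were at 12.5 ± 1.57 and 18.6 ± 7.40 RPKM in DP and at 1.04 ± 1.17 and 3.50 ± 2.73 in IMDP cells (adjusted p = 0.0692 and 0.107). *Nfkbia*, which encodes the inhibitor IκBα and is itself a target, was at 53.9, 87.5 and 60.9 RPKM in DP and 14.2, 33.2 and 15.0 in IMDP libraries, and *Tnfaip3*, the A20 deubiquitinase that ends NF-κB signaling, at 40.5, 76.0 and 57.7 against 9.55, 17.1 and 14.3 (adjusted p = 0.0719 for both). The groups did not overlap for either gene. In 31 tested genes of the Toll-like and IL-1 receptor pathway upstream of NF-κB none passed. 3 (9.68%, beside 19.0% of all genes) were non-overlapping lower and 1 (3.23%, beside 4.58%) non-overlapping higher. Both shares lay below those of all genes. The median was -0.07, or 0.08 with median scaling. The 1 higher gene was *Il1r1*, the signaling receptor of IL-1, at 2.49, 2.39 and 1.68 RPKM in DP and 5.61, 2.89 and 7.06 RPKM in IMDP libraries (adjusted p = 0.113).

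**Figure D3:**
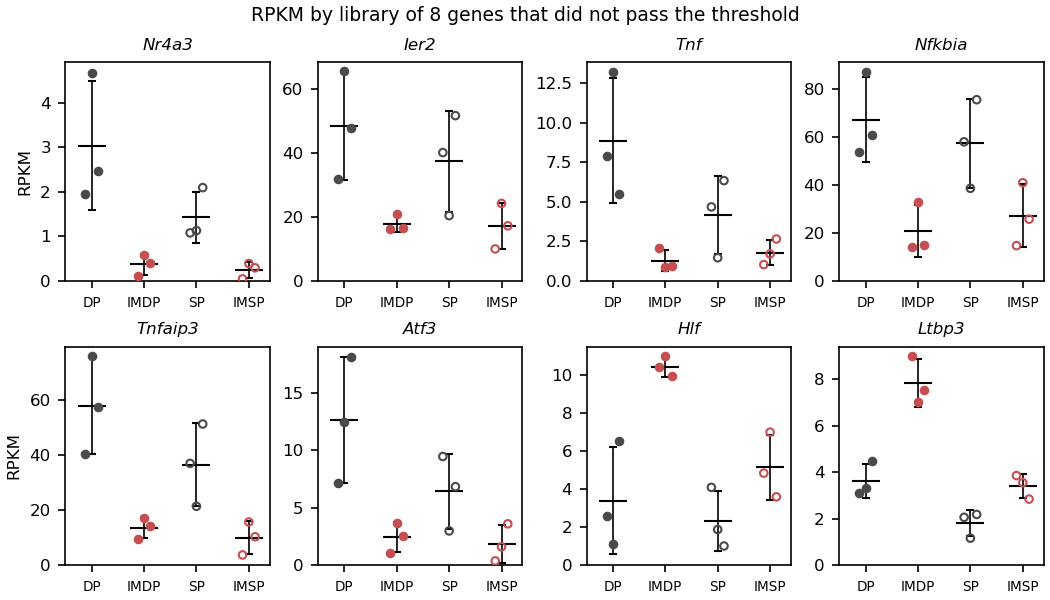
RPKM (vertical axes, from 0) in each library of 8 genes that did not pass the threshold, with DP and IMDP cells as filled points, SP and IMSP cells as open points, vehicle in grey, imatinib in red, and mean and SD of 3 libraries as bars. DP and IMDP libraries do not overlap in any of the 8, but the spread among DP libraries is wide, for example 7.20 to 18.2 RPKM for *Atf3*.

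Of 40 tested genes of hematopoietic stem cells (HSC) none passed. 6 (15.0%, beside 4.58% of all genes) had every IMDP library above every DP library. 2 (5%, beside 19.0% of all genes) had every IMDP library below. The median was 0.21 against -0.17 over all genes. By library the groups overlapped, the median of the list relative to each gene's mean being -0.35, -0.18 and 0.18 (log2) in DP replicates 1 to 3 and 0.16, 0.39 and -0.14 in IMDP replicates 1 to 3. *Hlf*, a transcription factor of HSC, was at 2.57, 1.11 and 6.53 RPKM in DP and 10.4, 11.0 and 9.95 in IMDP libraries, so that IMDP libraries lay close together above widely spread DP libraries (log2 difference 1.92, SE 0.56, limma adjusted p = 0.107). *Ltbp3*, a binding protein of latent TGF-β, was at 3.09, 3.32 and 4.46 against 9.01, 7.00 and 7.52 RPKM (adjusted p = 0.0612). *Hoxb4* and *Sult1a1* had adjusted p-values of 0.193 and 0.188. Outside the list, the adhesion receptor *Adgrl4* (6.73 ± 5.00 and 22.1 ± 8.66 RPKM), the glycosyltransferase *Gcnt2* (5.21 ± 2.90 and 10.4 ± 1.36) and the leukocyte transcript *Lst1* (4.10 ± 1.70 and 8.40 ± 1.85) were among the largest non-overlapping differences upward, with adjusted p-values of 0.135, 0.113 and 0.105. IMDP libraries were not uniform in this respect. *Flt3* and *Dntt*, genes of lymphoid-primed progenitors, were at 8.47, 1.17 and 9.33 and at 3.82, 1.70 and 7.48 RPKM in IMDP replicates 1 to 3, and *Vwf*, named after its values were seen and typical of platelet-biased HSC, at 0.290, 24.1 and 0.748 RPKM. *Vwf* is also among the megakaryocyte markers, whose sum was highest in IMDP replicate 2 among the IMDP libraries.

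The components of the drug target and of its signaling included no called gene. *Abl1* was at 15.0 ± 2.62 RPKM in DP and 11.9 ± 1.88 in IMDP cells and *Bcr* at 11.9 ± 2.23 and 9.20 ± 2.07 (adjusted p = 0.357 and 0.293), and reads of the BCR-ABL1 transgene may be among them. Of 17 tested BCR-ABL1 adaptors and imatinib targets none passed, and the median was -0.14, or 0.01 with median scaling. Of 6 drug transporters none passed and the median was 0.00, and *Abcb1b*, the P-glycoprotein pump, was at 1.85, 2.47 and 3.33 RPKM in DP and 4.49, 4.12 and 4.21 in IMDP libraries (adjusted p = 0.143). Among 11 immune checkpoint and don't-eat-me genes none passed, and none had libraries that did not overlap. *Cd274*, which encodes PD-L1, was at 8.26, 10.2 and 14.7 RPKM in DP and 10.8, 17.5 and 14.0 in IMDP libraries, overlapping groups with a log2 difference of 0.36 (SE 0.32, adjusted p = 0.555).

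Further lists held no gene past the threshold. Medians were -0.51 for 11 genes of the BCL2 family, -0.45 for 29 of glycolysis and HIF targets, -0.37 for 18 p53 target genes, -0.33 for 11 of MHC class II and -0.28 for 16 of MHC class I antigen presentation, -0.22 for 18 FOXO factors and targets, -0.21 for 32 of ribosome biogenesis and 0.15 for 20 of cholesterol synthesis and uptake. The interferon-stimulated genes had a median of -0.22 and the NRF2 genes one of -0.37. Glycolysis and HIF targets had 9 genes (31%, beside 19.0% of all genes) with non-overlapping lower libraries. Cholesterol synthesis and uptake had 3 (15%, beside 4.58% of all genes) with non-overlapping higher libraries.

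**Figure D4:**
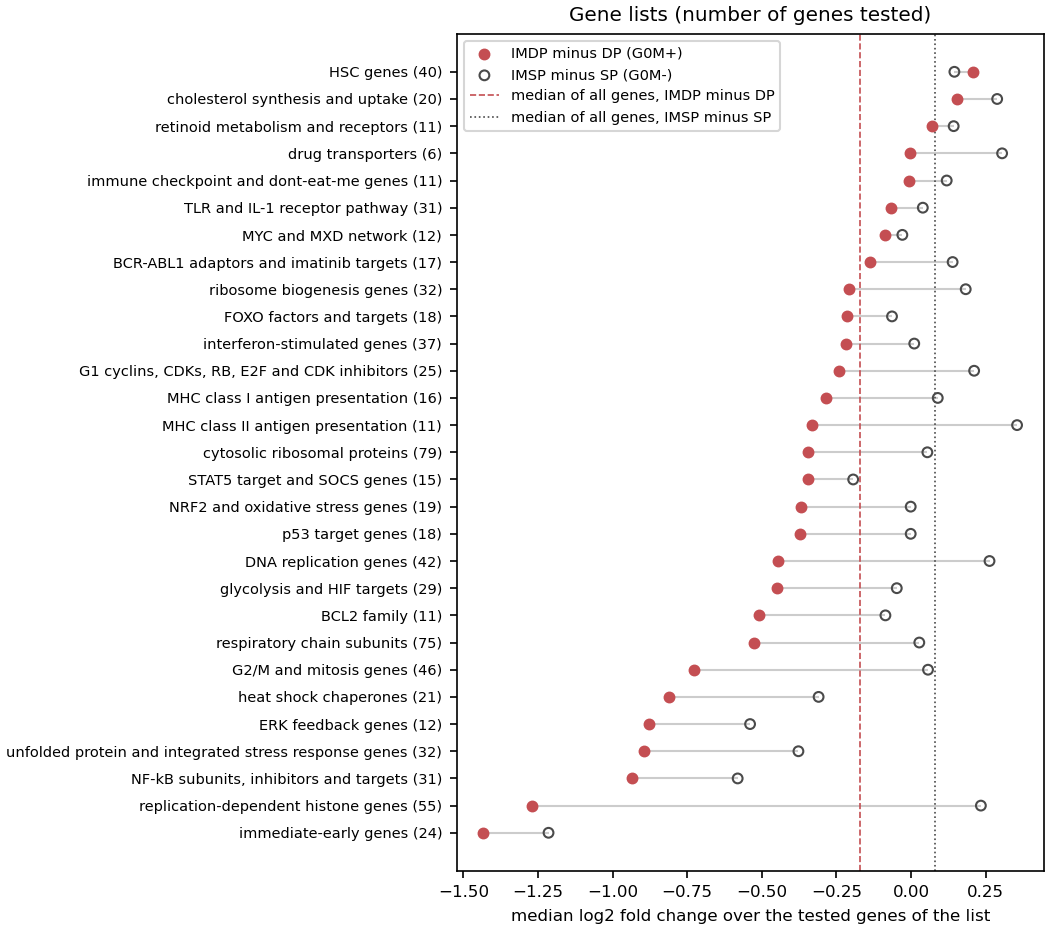
Median log2 fold change over the tested genes of each list (number in brackets) in G0M+ cells (red, IMDP minus DP) and in G0M- cells (open circles, IMSP minus SP), with the medians of all genes as dashed and dotted lines at -0.17 and 0.08. Immediate-early and NF-κB lists lay below the median of all genes in both populations, whereas the histone, DNA replication and G2/M lists lay below it in G0M+ cells and near or above it in G0M- cells.

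Whether the differences were particular to G0M+ cells was asked with IMSP and SP libraries. No gene passed between IMSP and SP cells (0%, with 845 genes at an unadjusted p under 0.05), and no gene passed the test of the difference between the 2 treatment effects (0%, with 937 at an unadjusted p under 0.05), by limma in both cases. The median of all genes was 0.08 in this comparison, and libraries did not overlap for 1114 genes with IMSP higher (11.1%) and 274 with IMSP lower (2.72%). Of the 34 genes that fell in IMDP cells, 27 were also below 0 in IMSP minus SP, and 14 had all IMSP libraries below all SP libraries. Those 14 included *Cd69* (44.2 ± 8.30 RPKM in SP and 15.7 ± 3.53 in IMSP cells), *Mxd1* (5.23 ± 1.24 and 2.22 ± 0.432), *Rhob* (21.3 ± 2.92 and 10.7 ± 1.16), *Sqstm1* (39.9 ± 10.2 and 18.1 ± 4.52), *Ddit3* (5.95 ± 1.08 and 2.61 ± 0.365) and *Herpud1* (34.0 ± 7.39 and 16.5 ± 1.99). The cell cycle genes were high in both G0M- groups, *Ccnb2* at 28.2 ± 1.59 RPKM in SP and 26.8 ± 10.0 in IMSP cells, *Cenpa* at 16.9 ± 2.65 and 13.7 ± 1.47 and *Hist1h2bc* at 33.4 ± 6.32 and 32.4 ± 4.73. List medians in IMSP minus SP were -1.21 for immediate-early and -0.58 for NF-κB genes, and 0.06 for G2/M, 0.26 for DNA replication and 0.23 for histone genes. Before adjustment, the limma p for the difference between the 2 effects was below 0.05 for 23 of the 37 genes. After adjustment, none of the 37 was below 0.534. The 37 were picked for their IMDP minus DP difference, which is also part of this test. Small p-values are therefore favored among them by the selection. The count of 23 cannot show whether a change was particular to G0M+ cells.

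**Figure D5:**
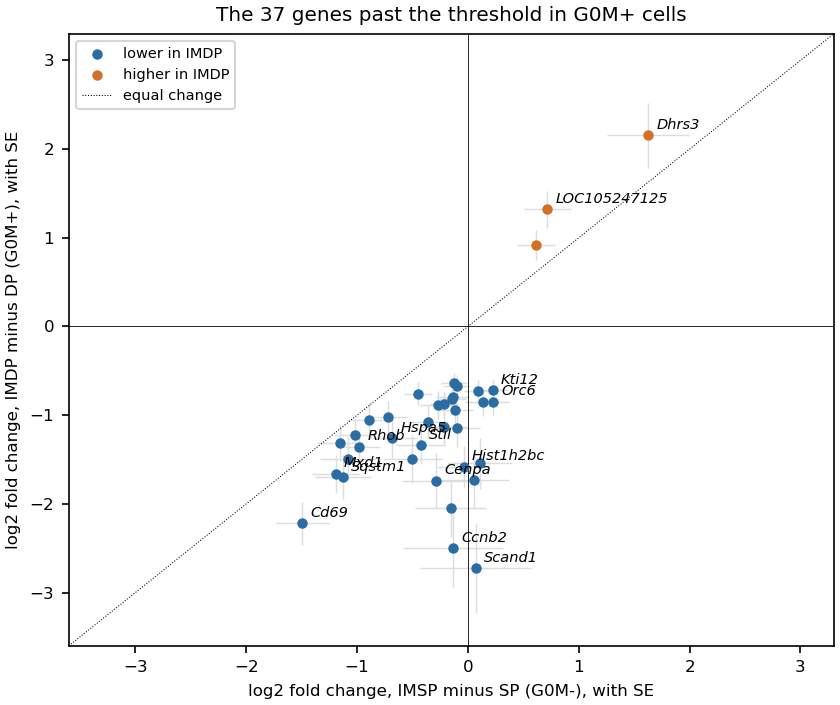
Log2 fold change after imatinib in G0M+ cells (vertical axis, IMDP minus DP) against that in G0M- cells (horizontal axis, IMSP minus SP) for the 37 genes past the threshold in G0M+ cells, with standard errors as grey bars and the line of equal change dotted. *Cd69*, *Mxd1*, *Sqstm1* and *Dhrs3* lie toward the diagonal, and *Ccnb2*, *Scand1* and *Hist1h2bc* near 0 on the horizontal axis.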

How the data were processed

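RNA of 100 sorted cells per library was sequenced by the authors, mapped to GRCm38 (mm10) and deposited as RPKM for each feature. CLC Genomics Workbench is named in the methods of the authors, but HISAT2 and featureCounts in their reporting summary. Which of these made the deposited RPKM, and whether a further normalization is in them, is not given in the sources used here. Reads were recovered from the RPKM (whole reads for 17734 of 17735 features above 0, within 0.02 of a whole number). The 4568 numbered copies of 1934 genes were summed, which left 46103 genes. Genes that reached 1 RPKM in 3 or more libraries entered a limma 3.58.1 fit under R 4.3.3 (trend on mean, 4 group means, all 12 libraries) on log2(RPKM + 0.1), with folds on that scale, at an adjusted p of 0.05 (Benjamini-Hochberg). The fit was tested on simulated data. Positions are from GENCODE M21 and promoter windows from RefSeq (GRCm38.p6). Reads include PCR copies, so depth covers counting error only.

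The members, the gene lists and the alternatives were chosen with earlier results of these data known. Named were all genes past the threshold, the 6 largest non-overlapping rises and falls with a mean of at least 5 RPKM, up to 4 genes with the smallest p of each list, the sort markers with a few fixed genes, and up to 3 top genes of each marker list. Alternatives were other filters, pseudocounts (1 and 0.01), scalings, voom on recovered reads, blocks, copies kept apart, and each library left out.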

Additional observations from a re-analysis of the deposited data

Results flagged for a closer look

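5 genes were flagged in which every IMDP library lay below every DP library while every IMSP library lay above every SP library. Over all genes tested, 19.0% had non-overlapping lower IMDP libraries and 11.1% had non-overlapping higher IMSP libraries. How many of all genes met both is not given here. The difference between the 2 treatment effects (IMDP minus DP, less IMSP minus SP, log2) was -0.943 for *Kti12*, -0.774 for *Mcm4*, -0.676 for *Nop14*, -1.07 for *Orc6* and -1.11 for *Tk1*, and the limma test of that difference gave an adjusted p of 0.534 for each. *Orc6* and *Mcm4* belong to the origin recognition and replicative helicase complexes, *Tk1* supplies thymidine nucleotides for DNA synthesis, *Nop14* acts in small ribosomal subunit assembly and *Kti12* in tRNA modification. *Tk1* measured 7.08, 8.06 and 7.53 RPKM in DP, 5.22, 4.96 and 4.10 in IMDP, 14.5, 11.8 and 12.2 in SP and 17.1, 20.6 and 15.0 in IMSP libraries. *Mcm4* measured 36.5, 36.9 and 34.1 RPKM in DP, 30.4, 18.1 and 25.7 in IMDP, 28.1, 23.4 and 27.3 in SP and 31.0, 31.0 and 29.1 in IMSP libraries.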

How the results depend on the processing

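The 37 calls between IMDP and DP cells became 0 when only the 6 libraries of the comparison were fitted (1724 genes at an unadjusted p under 0.05), 8 with neighboring library numbers as a random block, 2 with median scaling, 10 with voom and TMM scaling (7 higher and 3 lower) and 8 with voom and library totals, and ran from 0 to 189 when 1 library was left out. In the last case a group of 2 was fitted with the spread of all libraries. *Cd69* was called in 14 and *Mxd1* in 12 of 16 alternatives, 10 genes in at least 8 and none in all, and no called gene changed sign with a call. The calls of the difference between treatment effects ran from 0 to 1 when 1 library was left out. With the replicate number as a block (replicate block) 38 genes were called, 22 of them shared with the 37. Whether replicate numbers pair the samples is not given in the labels. Deviations of same-numbered DP and IMDP libraries correlated at 0.199, 0.0900 and 0.0951, each library best with its own number. Those of other numbers correlated at -0.165 to 0.0735, and whether this reflects a pairing was not tested. The cause of these shifts was not tested. Depth limits genes near 1 RPKM, which rest on few reads.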
